A study of Mus musculus with 40 samples.

Results

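Clock output genes are genes that the circadian clock switches on and off over the day and that pass its rhythm on to the rest of the cell. The 10 examined here in thigh muscle of male mice were Dbp, Tef, Hlf, Nfil3, Ciart, Bhlhe40, Bhlhe41, Rora, Usp2 and Noct, out of 16593 genes with a symbol on the array. They were chosen by name, with earlier results of these data known. Every probe annotated to 1 of these symbols or to the older names Gm129 (Ciart) and Ccrn4l (Noct) was taken, which gave 16 probes. The animals were 9-week-old C57BL/6J males kept under 14 h of light and 10 h of darkness. All were killed after a fast of 4 h, and each gave 1 array. Their dams had eaten a high-fat, low-carbohydrate diet (HF) or a low-fat, high-carbohydrate diet (LF), in both of which coconut oil was the main fat, from before mating until weaning, and the sons were then put on 1 of the same diets. In the group names the dams' diet stands before the sons' diet: HF_HF, LF_HF, HF_LF and LF_LF held 10 animals each. The series asked what the mother's diet and the son's own diet each leave behind in muscle expression. The 40 animals came from 12 numbered cages, 6 of LF dams and 6 of HF dams, so that several animals of a group shared a cage. The hour of killing was not given in the sources used here, and its part in any difference between groups cannot be told apart from diet or cage.

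The mammalian clock is a loop in which the CLOCK and ARNTL (BMAL1) proteins bind E-boxes in the DNA and raise transcription of the Per and Cry genes, whose proteins then block CLOCK and ARNTL. CLOCK and ARNTL also raise output genes directly. Dbp, Tef and Hlf encode activators of the PAR bZIP family that bind D-boxes, and Nfil3 encodes a repressor that binds the same sites. CIART (CHRONO), BHLHE40 (DEC1) and BHLHE41 (DEC2) repress transcription driven by CLOCK and ARNTL, while RORA activates Arntl through ROR elements, which the REV-ERB receptors NR1D1 and NR1D2 silence. Usp2 encodes a ubiquitin protease and Noct encodes nocturnin, an enzyme tied to lipid metabolism. Both are rhythmic in many mouse tissues. Skeletal muscle has a clock of its own, which in mice can be shifted by the time of feeding. The arrays measured bulk tissue, in which fewer cells of a type and less RNA per cell cannot be told apart.

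The binding sites of these factors can be read in the promoters of the genes themselves. RefSeq windows of the GRCm38.p6 build, of which the 250 bases before the transcription start were searched on both strands, were at hand for 9 of the 10 genes, Tef having 2 windows. The motifs were the E-box CACGTG, its variant the E-prime box CACGTT, the D-box TTANGTAA and the core of the ROR element TNGGTCA, none of which contains another. The sequences shown are those of the genes with a match, which for Ciart stood out by its number of E-boxes. Each runs 5′ to 3′ on the gene's strand up to the base before the start, with matches in capitals.
Ciart (chr3:95882229-95882478, minus strand): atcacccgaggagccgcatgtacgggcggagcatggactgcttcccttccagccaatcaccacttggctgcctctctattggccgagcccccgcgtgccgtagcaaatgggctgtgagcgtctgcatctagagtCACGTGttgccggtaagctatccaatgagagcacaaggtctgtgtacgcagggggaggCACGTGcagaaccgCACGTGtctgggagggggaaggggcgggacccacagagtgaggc
Tef (chr15:81802423-81802672, plus strand): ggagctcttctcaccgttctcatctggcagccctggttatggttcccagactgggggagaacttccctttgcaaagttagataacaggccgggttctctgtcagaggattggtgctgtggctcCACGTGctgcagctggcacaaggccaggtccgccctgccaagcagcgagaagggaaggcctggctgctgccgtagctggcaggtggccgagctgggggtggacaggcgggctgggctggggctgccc
Bhlhe41 (chr6:145865421-145865670, minus strand): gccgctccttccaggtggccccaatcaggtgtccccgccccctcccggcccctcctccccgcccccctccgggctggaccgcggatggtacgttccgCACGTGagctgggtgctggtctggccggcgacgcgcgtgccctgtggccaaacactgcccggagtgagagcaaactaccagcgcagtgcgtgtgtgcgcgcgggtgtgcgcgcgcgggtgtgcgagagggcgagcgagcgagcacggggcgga
Nfil3 (chr13:52981040-52981289, minus strand): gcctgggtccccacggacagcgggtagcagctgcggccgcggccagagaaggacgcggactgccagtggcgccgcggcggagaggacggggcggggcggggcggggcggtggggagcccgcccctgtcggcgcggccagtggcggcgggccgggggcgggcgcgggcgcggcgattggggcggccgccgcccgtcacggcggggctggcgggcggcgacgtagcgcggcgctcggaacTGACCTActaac
The Ciart window held 3 E-boxes, at 116 to 111, 58 to 53 and 44 to 39 bases before the start. At least 3 E-boxes were found in 20 of 32851 windows of the same length, or 0.0609%, and at least 1 in 6.02%. Tef carried 1 E-box in each of its windows, at 127 to 122 bases before the start in the window printed, and Bhlhe41 carried 1 at 153 to 148. The ROR core was present in Nfil3, 12 to 6 bases before the start and read from the other strand as TGACCTA, and in the second Tef window. It was present in 9.19% of all windows. The E-prime box (3.85% of all windows) and the D-box (2.06%) were matched in 0 members, and the windows of Dbp, Hlf, Rora, Usp2 and Noct held 0 matches to any of the motifs. These are matches of letters and not measured binding.

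Signals were the deposited quantile-normalised intensities, in arbitrary units, which ran from 47.2 to 32250.5 with a median of 75.7 over all probes and arrays. A probe was tested where it lay above its own array's median in at least 20 of the 40 arrays. 12467 of 25697 probes passed, and with them 13 of the 16 probes of clock output genes, covering 8 of the 10 genes. Hlf (60 to 88.2 over the 40 arrays), Bhlhe41 (54.9 to 71.0) and the second Rora probe stayed near background and were not tested. Hlf was above the median in 14 arrays and Bhlhe41 in 0. By mean log2 signal, Dbp and the brightest Usp2 probe lay at percentiles 98.4 and 98.5 of all probes, Bhlhe40 at 96.3, Rora at 94.7, Nfil3 at 93.6, Noct at 93.2, Tef at 93.1 and the brighter Ciart probe at 78.9. These percentiles are of probe brightness and do not order the transcripts by abundance.

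The median correlation between arrays was 0.990. The arrays fell into sets of 17 and 23 along the first principal component of the 13230 probes that failed the filter (20.8% of their variance). The labels do not name this split, which was defined from these data. It ran through all 4 groups and 10 of the 12 cages, but unevenly. The 17-array set held 5 HF_HF, 6 HF_LF, 4 LF_HF and 2 LF_LF animals. Between the sets 28.1% of all probes differed at an adjusted p below 0.05, and 0 of the 13 clock output probes did. The brightest Usp2 probe came nearest, with a log2 difference of −0.13 in the 23-array set against the 17-array set (limma, adjusted p = 0.0862). The markers of skeletal muscle were bright on all arrays, with 10 of 10 genes tested. Actn3, a fast-fibre gene, was the 1 of them called, lower in LF_HF against LF_LF (−0.16) and in HF-fed sons over both dams (−0.15). Of 7 lymphocyte genes, 0 passed the filter, which can miss a signal held by few arrays. Their summed intensity reached 1452.8 in LF_LF, where the median was 482.75. Of 7 macrophage genes, 7 passed, and 0 were called in LF_HF against LF_LF or over both dams. Their summed intensity reached 7609.7 in LF_HF, where the median was 1653.5. The 3 arrays taken as high in immune cell markers were LF_LF replicates 2 and 5 and LF_HF replicate 6, a fixed list without a cutoff. Their macrophage scores (mean log2 value of the 7 genes, each centred over the arrays) were 0.03, 0.43 and 1.45. HF_HF replicate 1, with 0.53, and HF_LF replicate 2, with 0.34, were not on the list. Markers of slow fibres varied widely. Their summed intensity was 17209.2 to 77397.8 in LF_HF and 6399 to 62576.9 in LF_LF, with a median log2 difference of 1.10 over 9 genes, 3 of them called. It was 9273.1 to 48260 in HF_HF and 4718 to 72702.3 in HF_LF, where 0 of the 9 were called and the median log2 difference was 0.36. Of 6 white adipocyte genes measured, 3 passed the filter, and 1 of them was lower in HF-fed sons over both dams. The summed intensity of the 6 was 534.1 to 2818.4 in HF_HF and 670.7 to 3081.5 in HF_LF, and 501.9 to 1468.8 in LF_HF and 720.4 to 4524.3 in LF_LF. Of 6 tested endothelial genes, Emcn (0.32 and 0.26) and Eng (0.35 and 0.28) were called higher in LF_HF against LF_LF and in HF-fed sons over both dams. The summed intensity of the 7 endothelial genes measured was 1592.9 to 1965.7 in LF_HF and 1506.5 to 1713.8 in LF_LF, and 1567.7 to 2194.3 in HF_HF and 1500.8 to 1975.2 in HF_LF. Of 6 tested early response genes, 2 were higher in HF-fed sons over both dams. The part of these markers in the differences described here was not tested.

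**Figure D1:**
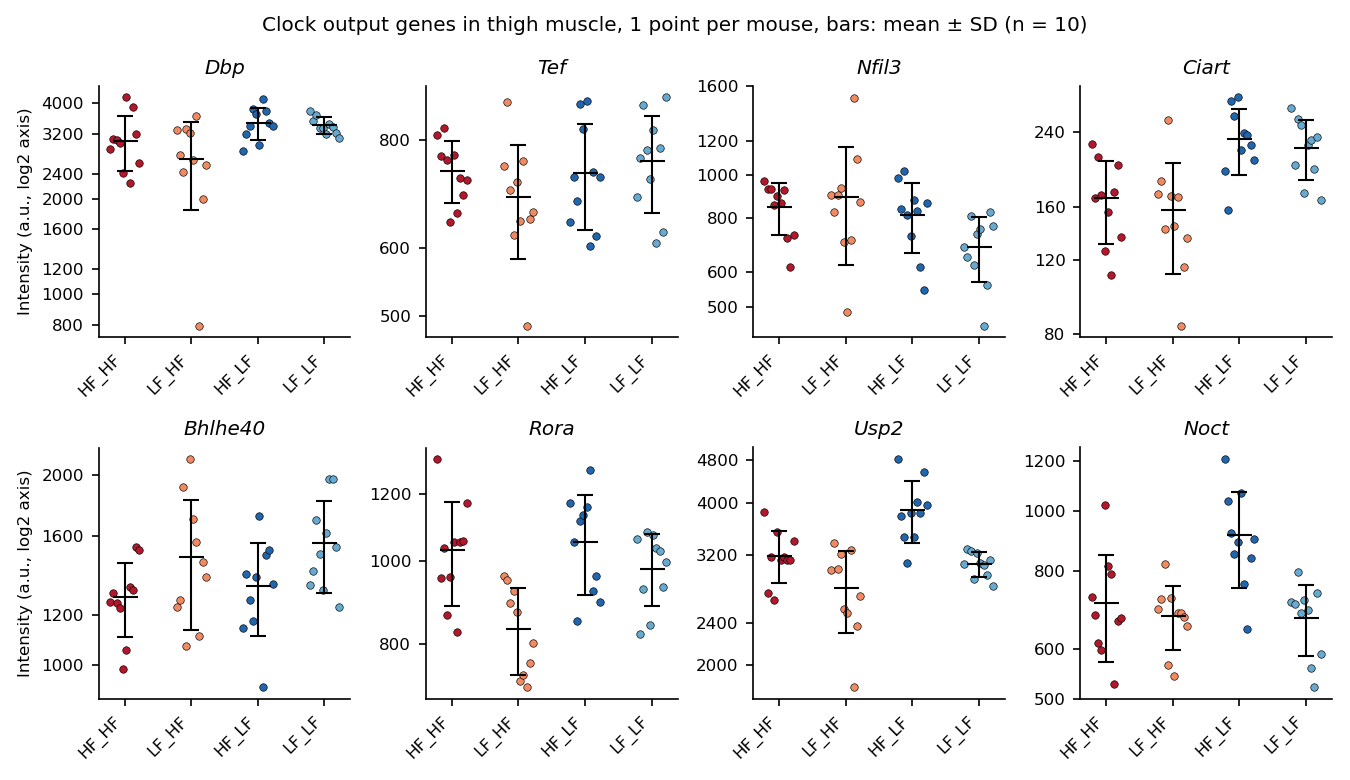
Normalised intensity (arbitrary units, log axis) of the brightest tested probe of each of the 8 tested clock output genes, with 1 point per animal and bars for the mean and SD of each diet group of 10 animals. Group means of Ciart sat lower in both groups of HF-fed sons than in both groups of LF-fed sons, and 1 LF_HF animal had a Dbp signal of 795.1, below the 1999.6 of the next animal.

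Ciart, the repressor of CLOCK and ARNTL with the E-box cluster printed above, had the largest differences of the tested members with the sons' own diet over both dams, being lower in HF-fed sons of either kind of dam. On the first Ciart probe (ILMN_3029489) HF_HF animals ran from 107.5 to 219.2 with a median of 150.5, against 154.1 to 270.8 with a median of 197.25 in HF_LF animals. LF_HF animals ran from 95.5 to 206.6 (median 149.3), against 167.9 to 241.2 (median 207.3) in LF_LF animals. In each comparison 7 of 10 HF-fed animals lay below every LF-fed animal from the same kind of dam, and the groups overlapped by the remaining 3. On the second Ciart probe (ILMN_3102736) the medians were 169.05 in HF_HF and 229.7 in HF_LF, and 156.5 in LF_HF and 226.8 in LF_LF. There 4 of 10 HF_HF animals lay below every HF_LF animal, and 5 of 10 LF_HF animals lay below every LF_LF animal.

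Among sons of LF dams the log2 difference of Ciart between LF_HF and LF_LF was −0.49 ± 0.11 (SE, adjusted p = 0.0143) on the first probe and −0.53 ± 0.14 (adjusted p = 0.0356) on the second. The first probe kept its call without any of the 20 arrays but lost it without cage 8 (adjusted p = 0.0705) or cage 11 (adjusted p = 0.110). The second kept it in 9 of 20 fits that left out 1 array and in 2 of 6 that left out 1 cage, with an adjusted p of 0.0521 without LF_HF replicate 8. Among sons of HF dams the difference between HF_HF and HF_LF was nearly as large, −0.46 ± 0.12 (adjusted p = 0.0909) and −0.47 ± 0.12 (adjusted p = 0.0878), but did not pass the threshold of 0.05. The test of whether the effect of the sons' diet differed between dams gave 0.03 ± 0.17 (95% interval −0.31 to 0.38) and 0.05 ± 0.19 (−0.34 to 0.45), intervals wide enough to hold differences the size of most effects described here. Since both pairs pointed the same way, the mean of both differences was also taken from 1 fit of the 40 arrays, a contrast added after the values of the pairs had been seen. In it Ciart fell by 0.47 ± 0.09 on the log2 scale (0.720-fold, adjusted p = 0.000279) and by 0.50 ± 0.10 (0.707-fold, adjusted p = 0.000707). Leaving out any of the 40 arrays or 12 cages kept both probes below an adjusted p of 0.05 in this contrast, the largest value being 0.00634 on the second probe. Within the 17-array set the same contrast gave −0.55 (adjusted p = 0.184) and −0.57 (adjusted p = 0.271) for the Ciart probes, and within the 23-array set −0.43 (adjusted p = 0.0376) and −0.46 (adjusted p = 0.0261). With regard to the dams' diet, Ciart gave −0.01 (95% interval −0.19 to 0.16) and 0.09 (−0.11 to 0.29) over both diets of the sons.

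Usp2, the ubiquitin protease, was lower in HF-fed sons on all 3 of its probes and, on its brightest probe, higher in sons of HF dams. On that probe (ILMN_1240264) HF_HF animals ran from 2640 to 3843.4 (median 3153.6), LF_HF animals from 1822.4 to 3364.6 (median 2841.95), HF_LF animals from 3093.6 to 4817 (median 3833) and LF_LF animals from 2802.4 to 3282.5 (median 3083.95). In HF_LF 9 of 10 animals lay above every LF_LF animal, while 2 of 10 HF_HF animals lay below every HF_LF animal and those groups overlapped. On the dimmest probe (ILMN_2482390), HF_HF animals ran from 129.6 to 191.6 (median 137.05), against 152.7 to 186.2 (median 167.2) in HF_LF animals. LF_HF animals ran from 87.6 to 148.9 (median 128), against 124.4 to 184.5 (median 150.45) in LF_LF animals. All HF_HF animals but 1 lay below every HF_LF animal on this probe, and the exception, at 191.6, lay above all of them. The remaining probe (ILMN_2466316) had medians of 162.5 in HF_HF and 184.95 in HF_LF, and of 149.5 in LF_HF and 171.85 in LF_LF.

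In neither pair did a Usp2 probe pass the threshold for the sons' diet, the smallest adjusted p being 0.0615 in LF_HF against LF_LF and 0.0822 in HF_HF against HF_LF, both for the dimmest probe. Over both dams Usp2 fell by 0.22 ± 0.06 (adjusted p = 0.0104), 0.18 ± 0.06 (adjusted p = 0.0400) and 0.25 ± 0.05 (adjusted p = 0.00107) on the log2 scale, in the order brightest, middle and dimmest probe. The brightest probe lost its call without cage 23 (adjusted p = 0.0754). The middle probe kept its call in 18 of 40 fits that left out 1 array and in 5 of 12 that left out 1 cage, its adjusted p being 0.251 without cage 11, while the dimmest kept it without any array or cage, with adjusted p-values of at most 0.00592. With cage as a fixed term the calls of the middle (−0.18, adjusted p = 0.190) and dimmest Usp2 probes (−0.21, adjusted p = 0.0751) ended, and the brightest probe kept its call (−0.24, adjusted p = 0.0306). For the dams' diet the brightest Usp2 probe gave 0.32 ± 0.06 in HF_LF against LF_LF (adjusted p = 0.0658) and 0.21 ± 0.09 in HF_HF against LF_HF (adjusted p = 0.631). Over both diets of the sons, in the second contrast added after the values had been seen, it rose by 0.27 ± 0.06 (1.2-fold, adjusted p = 0.0141) in sons of HF dams. The other probes gave 0.16 ± 0.06 (adjusted p = 0.241) and 0.18 ± 0.05 (adjusted p = 0.0851). The call on the brightest Usp2 probe was lost without cage 11 (0.20, adjusted p = 0.154) and without cage 10 (adjusted p = 0.0652). Each cage had dams of 1 diet, so this contrast sets 6 cages against 6, while its p-value counts animals. With 1 value per cage and group the brightest probe gave 0.28 and did not pass (limma, adjusted p = 0.351).

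Dbp, the D-box activator, was bright in all groups and most scattered in LF_HF. Its intensities were 2242.6 to 4171.9 (median 3028.45) in HF_HF, against 2832.8 to 4126.7 (median 3430.25) in HF_LF. They were 795.1 to 3642.9 (median 2702.9) in LF_HF, against 3108.3 to 3780.8 (median 3359.9) in LF_LF. Of the LF_HF animals, 6 of 10 lay below every LF_LF animal, and the SD of log2 values was 0.63 in LF_HF and 0.09 in LF_LF. The log2 difference was −0.45 ± 0.18 between LF_HF and LF_LF (adjusted p = 0.191) and −0.20 ± 0.10 between HF_HF and HF_LF (adjusted p = 0.434). Over both dams it was −0.32 ± 0.11 (adjusted p = 0.0547), and without the animal at 795.1 it was −0.23 ± 0.07 (adjusted p = 0.0262), a smaller difference with a smaller error. Leaving out 1 array or cage brought Dbp below the threshold in 8 of 40 and 2 of 12 cases. The dams' diet gave 0.14 ± 0.11 for Dbp (adjusted p = 0.686).

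The relatives of Dbp showed less. Tef, of the same family, had on its brighter probe medians of 741.1 in HF_HF, 680.4 in LF_HF, 725.6 in HF_LF and 771.3 in LF_LF, and over both dams its probes gave −0.06 ± 0.06 and −0.09 ± 0.05 with adjusted p-values of 0.593 and 0.324. Hlf stayed at background, with group medians of 72.6 in HF_HF, 74.4 in LF_HF, 76.4 in HF_LF and 70.15 in LF_LF. Nfil3, the repressor at the same DNA sites, was the tested member whose signal lay higher in HF-fed sons over both dams. It ran from 617.5 to 969.8 (median 880.25) in HF_HF, against 546.1 to 1024.6 (median 833.9) in HF_LF, and from 488.5 to 1505.1 (median 884.9) in LF_HF, against 453.1 to 826.2 (median 711.55) in LF_LF. Here 6 of 10 LF_HF animals lay above every LF_LF animal, and the ranges of HF_HF and HF_LF overlapped almost fully. The log2 difference of Nfil3 was 0.34 ± 0.14 between LF_HF and LF_LF (adjusted p = 0.205) and 0.20 ± 0.09 over both dams (adjusted p = 0.184), so that it did not pass the test. With cage as a fixed term, which compares sons within cages, Nfil3 over both dams gave 0.34 ± 0.09 and passed (adjusted p = 0.0212). Without cage 9 the difference over both dams had an adjusted p of 0.0187.

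Rora, the activator of Arntl, had its lowest median in LF_HF. It ran from 711.5 to 961.2 (median 836.55) in LF_HF, against 822.2 to 1083.8 (median 1012.55) in LF_LF, and 10 of 10 LF_HF animals lay below the LF_LF mean. HF_HF animals, at 826.2 to 1319.8 (median 1045.5), covered nearly the same range as HF_LF animals, at 851.2 to 1282.5 (median 1084.8). Rora fell by 0.24 ± 0.07 on the log2 scale in LF_HF against LF_LF (0.848-fold, adjusted p = 0.0491), a call near the threshold that held in 7 of 20 fits that left out 1 array and in 1 of 6 that left out 1 cage. Without LF_HF replicate 8 its adjusted p was 0.0981, and without cage 11 it was 0.365. The difference was −0.03 ± 0.08 between HF_HF and HF_LF (adjusted p = 0.909), yet the 2 effects were not shown to differ (0.20 ± 0.11, adjusted p = 0.908). Between HF_HF and LF_HF, which shares the LF_HF animals with the first comparison, the difference was 0.30 ± 0.08 (adjusted p = 0.364), and 6 of 10 HF_HF animals lay above every LF_HF animal.

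Noct had its highest median in HF_LF. On its brighter probe (ILMN_1255422) it ran from 528.7 to 1021.4 (median 676.95) in HF_HF, 544.4 to 822.9 (median 685.95) in LF_HF, 647.5 to 1210.9 (median 896) in HF_LF and 522.4 to 796.8 (median 701.45) in LF_LF, and 8 of 10 HF_LF animals lay above every LF_LF animal. The log2 difference of this Noct probe was 0.43 ± 0.09 in HF_LF against LF_LF (adjusted p = 0.0994) and −0.36 ± 0.11 in HF_HF against HF_LF (adjusted p = 0.161), comparisons that share the HF_LF animals. Its interaction of both diets was −0.37 ± 0.14 (p = 0.00948), and after adjustment over all probes it did not pass (adjusted p = 0.908). On the dimmer Noct probe (ILMN_2591440) the same pairs gave 0.34 ± 0.18 (limma, adjusted p = 0.613) and −0.35 ± 0.22 (adjusted p = 0.583). The interaction on the dimmer probe was −0.50 ± 0.27 (limma, p = 0.0766). Bhlhe40, the E-box repressor, ran the other way with the dams' diet, with medians of 1277.65 in HF_HF and 1418 in LF_HF, and of 1361.95 in HF_LF and 1520.55 in LF_LF. Its log2 difference over both diets of the sons was −0.21 ± 0.08 (adjusted p = 0.301). Bhlhe41, its close relative, was at background in all groups, with medians of 62.55 in HF_HF, 61.25 in LF_HF, 62.8 in HF_LF and 64.35 in LF_LF.

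Counted over the 13 tested probes, the sons' diet called 3 clock output probes in LF_HF against LF_LF, where 4.18% of all probes were called, and 7 had an unadjusted p below 0.05, against 17.4% of all probes. The 3 were both Ciart probes and Rora. In HF_HF against HF_LF, which uses none of the same animals, 0 clock output probes were called (0.361% of all probes) and 6 had an unadjusted p below 0.05 (11.4% of all), all 6 lower in HF_HF. In the contrast over both dams 5 of the 13 were called, all lower, with 7.88% of all probes called, and 9 had an unadjusted p below 0.05 (21.1% of all). The log2 difference was negative for 12 of 13 probes, with a median of −0.17, while 53.4% of all tested probes were negative, with a median of −0.01. The 5 called probes belong to Ciart and Usp2, and several of the 13 probes measure the same gene. Since the members were chosen with earlier results of these data known, these counts and those for the dams' diet are a description. They are not a test against all probes.

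For the dams' diet 0 clock output probes were called in HF_LF against LF_LF (0.016% of all probes), and 5 had an unadjusted p below 0.05 (8.21% of all). In HF_HF against LF_HF 0 were called (0% of all) and 4 had an unadjusted p below 0.05 (7.24% of all), all 4 higher in HF_HF, being the 3 Usp2 probes and Rora. Over both diets of the sons 1 was called, the brightest Usp2 probe, with 0.61% of all probes called, and 6 had an unadjusted p below 0.05 (9.97% of all), 5 of them higher in sons of HF dams. The interaction of both diets gave 0 calls among the members, as among all probes (0%), and 1 member probe, the brighter Noct probe, had an unadjusted p below 0.05 (5.19% of all).

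**Figure D2:**
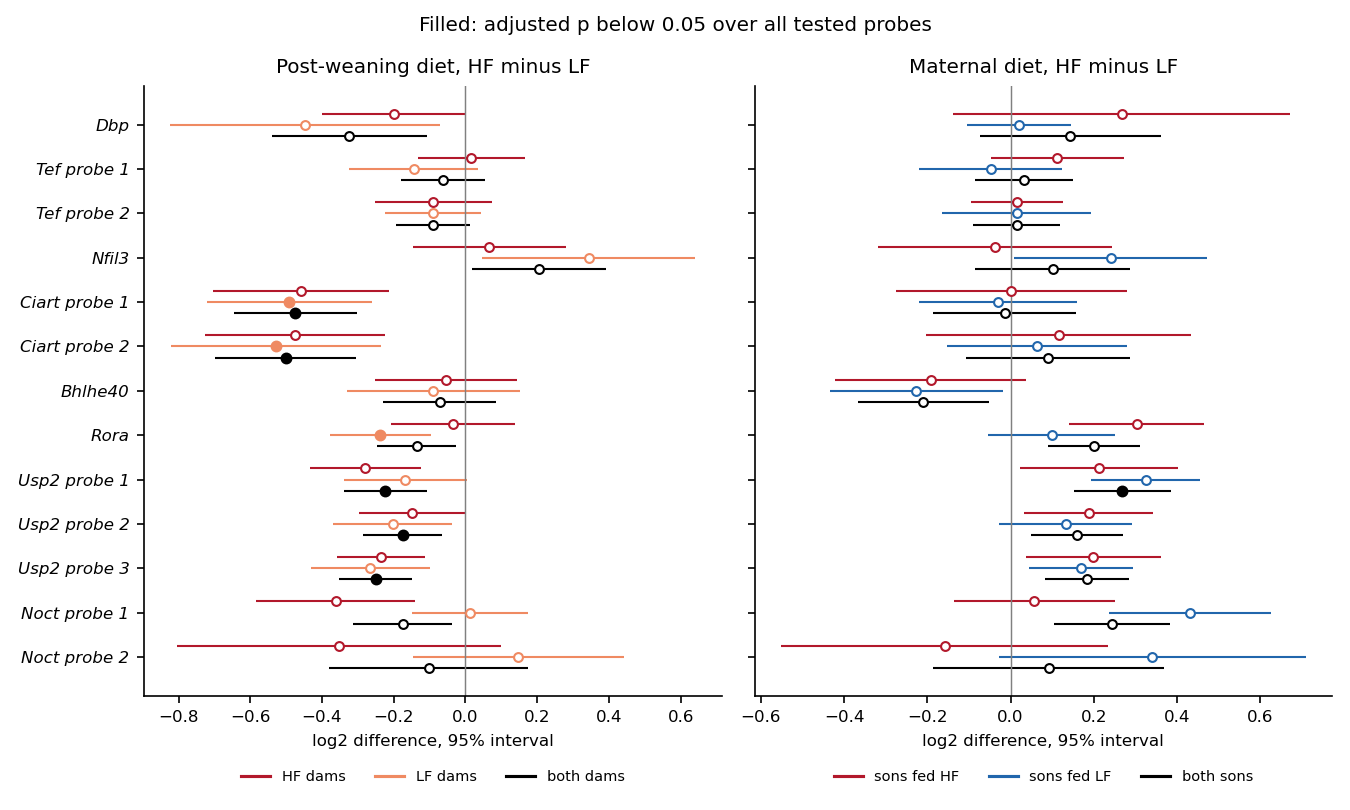
Log2 difference, with its 95% interval, of each of the 13 tested probes for the post-weaning diet (left) and the maternal diet (right), by pair of groups (10 against 10 animals) and over both pairs, with filled points at an adjusted p below 0.05 and a grey line at 0. The Ciart and Usp2 probes lie left of 0 in both post-weaning comparisons, and the Usp2 probes lie right of 0 in both maternal comparisons.

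Of the 12 cages, 5 (cages 4 and 11 of LF dams, and 10, 20 and 23 of HF dams) held sons on both diets, which allowed the diets to be set side by side within a cage. Within these cages Dbp was lower in the HF-fed sons in 5 of 5, by −0.99 (cage 11) to −0.07 (cage 10) on the log2 scale. The dimmest Usp2 probe was also lower in 5 of 5, by −0.31 to −0.11, the brightest in 4 of 5 and the middle one in 3 of 5. Bhlhe40 was lower in 5 of 5 on the log2 scale, by −0.42 to −0.006 with a median of −0.04. In cage 4 its mean intensity was nevertheless higher in the HF-fed sons (1495.5 against 1478.8). The first Ciart probe was lower in 4 of 5, with −0.13 in cage 4, −0.85 in cage 11, −0.55 in cage 20 and −0.28 in cage 23. In cage 10, which held a single HF_HF animal, it was higher by 0.14. Rora was lower in 3 of 5 cages (−0.35 to 0.25), as were both Tef and both Noct probes. Nfil3 was higher in the HF-fed sons in 5 of 5 cages, by 0.09 to 0.53. Each of these cage values rests on 1 to 3 animals per diet, and no test was made over the cages. The share of all probes with the same sign in 5 of 5 cages was not counted.

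Cage number took up 65.7% of the variance of Nfil3 within groups, against a median of 27.7% over all tested probes, and with an adjusted p of 0.0537 it did not pass the test. Across cages 0 of the 13 clock output probes were called, with 0.193% of all probes called. For the dams' diet, cage means of the brightest Usp2 probe were 3220.7 to 4249.4 in the 6 cages of HF dams, against 2559.8 to 3206.4 in the 6 cages of LF dams, without overlap. That held for 1 of the 13 clock output probes and for 0.369% of all probes. With 1 value per cage and group in the fit, Ciart kept a log2 difference of −0.42 (adjusted p = 0.0377) and −0.43 (adjusted p = 0.0591) over both dams, and the dimmest Usp2 probe one of −0.23 (adjusted p = 0.0148), while the difference of the brightest Usp2 probe by the dams' diet was 0.28 (adjusted p = 0.351).

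**Figure D3:**
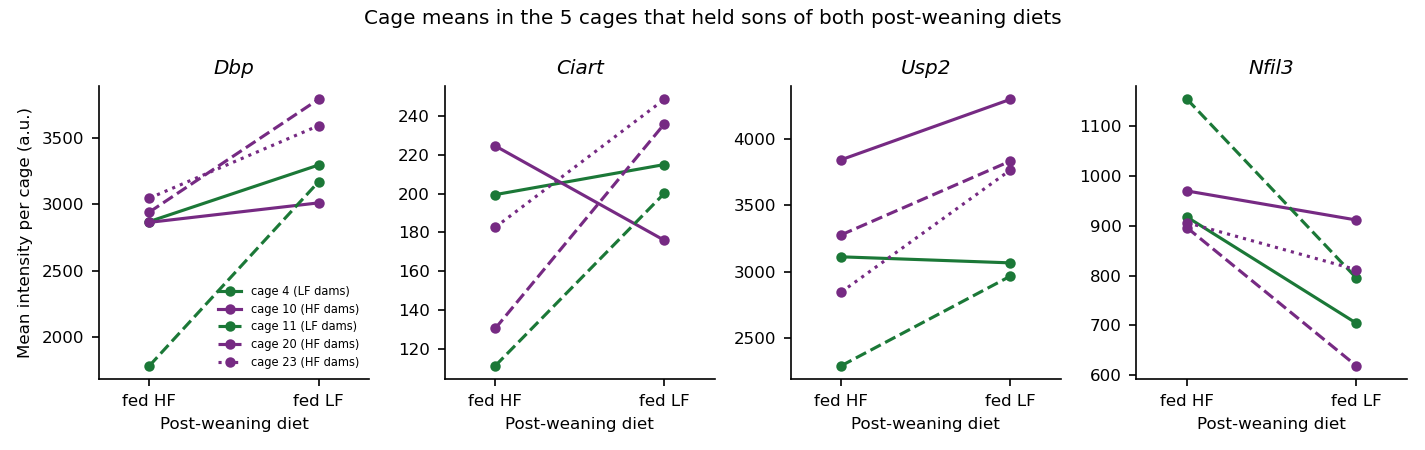
Mean normalised intensity (arbitrary units) per cage of Dbp, Ciart (second probe), Usp2 (brightest probe) and Nfil3 in the 5 cages that held sons on both diets, a line joining the HF-fed and the LF-fed sons of a cage, coloured by the dams' diet. Dbp is lower and Nfil3 higher in the HF-fed sons of all 5 cages, and Ciart is lower in 4 of the 5.

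How far the members moved together from animal to animal was measured against Dbp, with the mean of each diet group taken away. Over 40 animals and 16 pairs (7 members and 9 core clock genes), 3 pairs passed a permutation test within groups after adjustment over the 16. Ciart was highest, with Pearson's r = 0.68 (adjusted p = 0.00032) and Spearman's rho = 0.62. Arntl, the partner of CLOCK, gave r = −0.63 (permutation test, adjusted p = 0.0114, rho = −0.43), and Nfil3 gave r = −0.52 (permutation test, adjusted p = 0.0468, rho = −0.51). The 2 animals farthest from the median of Dbp were LF_HF replicates 8 and 9, 2 of the 3 LF_HF animals of cage 11. Without them Ciart kept r = 0.54 (permutation test, adjusted p = 0.027), while Arntl fell to −0.29 and Nfil3 to −0.19, so that those 2 relations rest on these animals. With cage means taken away as well, the r of Ciart was 0.64 (permutation test, adjusted p = 0.0491). Within the array sets it was 0.80 in the 17 arrays (adjusted p = 0.101) and 0.59 in the 23 arrays (adjusted p = 0.137, permutation tests). All pairs share each array's normalisation.

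Ranked by r with Dbp among 11768 tested probes with a gene symbol, whose r had a median of 0.01 and ran from −0.25 at the 5th to 0.28 at the 95th percentile, the 5 highest were both Ciart probes (0.68 and 0.62), Coq10b (0.62), Per2 (0.61) and Hgh1 (0.59). The 5 lowest were Wsb1 (−0.67), Arntl (−0.63), Nfil3 (−0.52), Prkcd (−0.49) and Shkbp1 (−0.48). Without the same 2 animals, Per2 gave 0.10 and Prkcd −0.17, while Hgh1 gave 0.65 and Wsb1 −0.60. This ranking is a description.

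**Figure D4:**
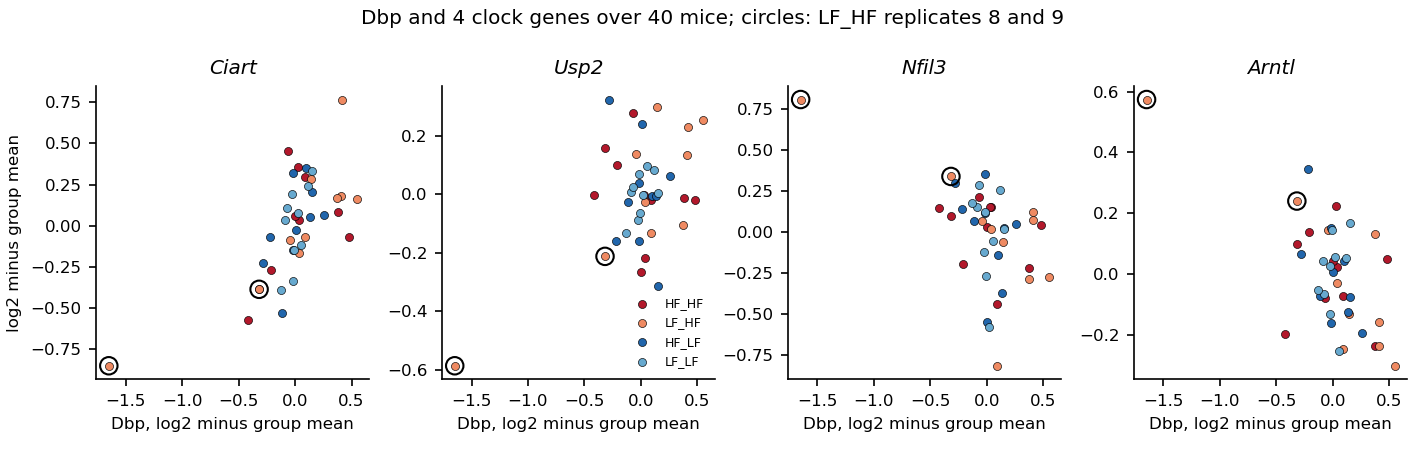
Log2 intensity of Ciart, Usp2, Nfil3 and Arntl against that of Dbp in 40 animals, each value minus the mean of its diet group, with points coloured by group and circles around the 2 animals farthest from the median of Dbp. Ciart follows Dbp (r = 0.68), Nfil3 (r = −0.52) and Arntl (r = −0.63) run against it, and 1 LF_HF animal lies far to the left in every panel.

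That animal, LF_HF replicate 8, was singled out after its values were seen. Of 26 member and core clock probes, it was the lowest of 40 animals in 13 and the highest in 2. It was lowest for Dbp (795.1, the next animal having 1999.6), for both Ciart probes (95.5 and 83.8), for Rora (711.5), for the brighter Tef probe (486.8), for all 3 Usp2 probes and for both probes each of Per1 and Per2. It was highest for Nfil3 (1505.1, the others reaching 1087.3) and Arntl (208.1, the others reaching 165.2). Over all tested probes it was the lowest animal for 1.61% and the highest for 2.1%.

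The clock machinery around these genes was read from 3 lists. Of 9 tested core clock genes, 0 were called in any of the 4 pairs of groups, the smallest adjusted p being that of Per1, a repressor of the loop, in HF_HF against HF_LF (−0.43, adjusted p = 0.0544). Over both dams Per1 (−0.34, adjusted p = 0.00857) and Per2 (−0.31, adjusted p = 0.0115) fell and Timeless (0.16, adjusted p = 0.0297) rose in HF-fed sons, with a list median of −0.10. Over both diets of the sons, Per1 (0.39, adjusted p = 0.0141) and Cry2 (0.21, adjusted p = 0.0131) rose in sons of HF dams, with a list median of 0.02. Mean Per1 intensity was 607 ± 136 in HF_HF, 493 ± 104 in LF_HF, 804 ± 80.5 in HF_LF and 586 ± 133 in LF_LF (SD, n = 10 each). Without cage 11 only Per2 kept its call for the sons' diet (−0.24, adjusted p = 0.0328), and 0 core clock genes kept one for the dams' diet.

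Among 7 tested regulators of the clock, 0 were called in the pairs, and over both dams Ppargc1a, a coactivator of mitochondrial genes, rose in HF-fed sons (0.21, adjusted p = 0.0276), a call lost without cage 11. Among 10 tested genes known to follow the clock in other tissues, Klf9, a transcription factor induced by glucocorticoids, fell in LF_HF against LF_LF (−0.20, adjusted p = 0.0168) and over both dams (−0.18, adjusted p = 0.00184). Alas1, the first enzyme of haem synthesis, rose in LF_HF against LF_LF (0.21, adjusted p = 0.0252). Its mean intensity was 3619 in LF_HF and 3124 in LF_LF, but 3390 in HF_HF and 3456 in HF_LF. Klf9 also rose in sons of HF dams over both diets of the sons (0.16, adjusted p = 0.0407), a call lost without LF_HF replicate 8. Mean Klf9 intensity was 5238 in HF_HF and 4633 in LF_HF, and 5867 in HF_LF and 5309 in LF_LF. With 1 value per cage and group, 0 genes of the 3 lists were called in either contrast over both diets.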

How the data were processed

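Total RNA of thigh muscle from 40 animals was labelled with biotin and hybridised to MouseRef-8 v2.0 arrays. The deposited intensity values come from BeadStudio (no version given) and had been quantile-normalised over the 40 arrays by the authors. This fixes each array's distribution, so only differences relative to the other probes can be seen. Groups were taken from the maternal and post-weaning diet labels. Values were log2-transformed and tested with limma 3.58.1 (R 4.3.3; lmFit, eBayes with trend, two-sided), with Benjamini-Hochberg adjustment over all 12467 tested probes and a call at an adjusted p below 0.05. Each pair of groups was fitted on its own 20 arrays, and the interaction, both contrasts over both diets, the cages and the array sets on all 40. Both contrasts over both diets were added after the values of the pairs had been seen. Correlations used 100000 resamples within groups (Python 3.11.15, scipy 1.17.1). Every probe of each member is named, with the called genes of the 3 clock lists (or the one of smallest p) and the 5 probes most and least like Dbp. The members and lists were chosen with earlier results of these data known. The fits were tested on simulated data. In the study's methods a breeding cage held more than 1 female (a pair, with 1 male), and the sons of a cage were divided between the diets at weaning. The labels give a cage number without saying whether it is the breeding cage. P-values measure the spread between animals that partly shared cages, and cage was tried as a fixed term, as a random term and with 1 value per cage and group. The number of arrays limits the precision.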

Additional observations from a re-analysis of the deposited data

Results flagged for a closer look

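In 4 of 52 groups of 10 animals (13 probes in 4 diet groups), the highest or lowest animal lay farther from the rest than Dixon's 95% critical value allows, where chance alone gives about 1 in 20. For Dbp, LF_HF replicate 8 of cage 11 was lowest at 795.1, the others of its group lying between 2000 and 3643. For the dimmest Usp2 probe, HF_HF replicate 3 of cage 23 was highest at 191.6, the others reaching 150.2, and without it 2 member probes were called in HF_HF against HF_LF instead of 0. For the dimmer Noct probe (ILMN_2591440), HF_LF replicate 6 of cage 23 was highest at 717, the others reaching 293.8, and LF_HF replicate 5 of cage 9 was highest at 473.5, the others reaching 260.3.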

How the results depend on the processing

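In LF_HF against LF_LF, where 3 member probes were called, 1 was called with all probes in the fit and within the 23-array set, and 0 with 1 value per cage and group, with cage as a fixed term and within the 17-array set. Among all probes fitted, 521 were called in the main fit, 319 with all probes and 104 within the 23-array set. There were 149 with 1 value per cage and group, 208 with cage as a fixed term and 2 within the 17-array set. Leaving out 1 array or cage gave 0 to 4, with 0 without cage 8 or cage 11 and 1 without any of 10 single arrays, LF_HF replicate 8 among them, or cage 6. In HF_HF against HF_LF array weights gave 2 calls instead of 0, and leaving out 1 array or cage gave 0 to 2. With array weights 70 of all tested probes were called, against 45 in the main fit. In HF_LF against LF_LF array weights and cage as a random term each gave 1 call instead of 0, and leaving out 1 array or cage gave 0 to 1. Array weights called 4 of all tested probes and cage as a random term 6, against 2 in the main fit. In HF_HF against LF_HF and for the interaction the count was 0 under every alternative run, with 0 to 0 for leaving out. Over all tested probes the main fits also called 0. The sons' diet over both dams, with 5 calls, gave 4 with cage as a fixed term (both Ciart probes, the brightest Usp2 probe and Nfil3), 2 with 1 value per cage and group, 0 within the 17-array set and 3 within the 23-array set, and 3 to 6 on leaving out an array or cage, the 3 being without cage 23. Of all tested probes 982 were called in the main fit, 501 with cage as a fixed term and 304 with 1 value per cage and group. Only 14 were called within the 17-array set and 206 within the 23-array set, so calls fell over the whole array and not only among the members. The dams' diet over both diets of the sons, with 1 call, gave 0 with 1 value per cage and group and within either array set, and 0 to 3 on leaving out, with 0 without cage 10 or 11. For this contrast 76 of all tested probes were called in the main fit, 1 with 1 value per cage and group and 0 within either array set. Between cages Nfil3 became the 1 call with array set as a fixed term, where 35 of all tested probes were called, against 24 in the main fit. Between array sets Hlf became the 1 call with all probes, where 9464 of 25697 probes were called. Hlf was among the probes that failed the filter, from which the sets were defined, so this call says nothing about Hlf. Of the 3 correlations with Dbp, 1 passed within the 17-array set, 0 within the 23-array set, 1 with cage means taken away and 1 without the 2 animals farthest from the median of Dbp. In that last setting the r of Usp2 with Dbp turned to −0.084 (adjusted p = 0.829). A change of direction was counted only where the main value or the alternative had an unadjusted p below 0.05. Of 1040 alternatives run on 72 single values (log2 differences of the brightest tested probe of each member, and correlations), this was the 1 so counted. Weaker values also changed sign without being counted. The r of Bhlhe40 with Dbp, for example, went from 0.12 to −0.18 in the same setting. The cause was not tested for any of these. For replicate numbers, no paired analysis was possible because they were given in accession order and only name animals. Cage was the block the labels allow, and as a fixed term it also gave 0 member calls in HF_HF against HF_LF, where 52 of all tested probes were called. HF_HF against HF_LF without the arrays listed as high in immune markers was not run, as it holds none of the 3 listed. Cage as a fixed term was not run for the dams' diet, as each cage had dams of 1 diet. Hlf and Bhlhe41 were below the filter and were tested only in the fits of all probes.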
